A study of Mus musculus with 4 samples.

Results

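Macrophage and neutrophil genes were described in the mouse prostate through 10 genes: the complement C1q chains C1qa, C1qb and C1qc, the macrophage genes Cd68, Csf1r and Emr1, the alarmin subunits S100a8 and S100a9, and the endotoxin receptor components Cd14 and Ly96. They were every gene whose name in the scanner files equalled one of these symbols, and were read by 13 of 41174 probes, or 10 of 27974 genes. All mice were males of 8 weeks, kept on an AIN-76A diet and fasted overnight. C57BL/6 mice or TRAMP mice, whose transgene places SV40 early genes behind the probasin promoter of the rat, active in prostate epithelium, were gavaged with olive oil or with 600 mg/kg of TmT, a tocopherol mixture rich in gamma-tocopherol, a form of vitamin E. Prostates were taken 12 hours later. Each of the 4 groups had 3 mice and is represented by 1 array, a pool or a single mouse (not stated), so a difference between 2 arrays has no replicate check and carries no p-value. The background strain of the TRAMP mice is not given, so genotype differences are those between the lines.

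Resident macrophages depend on signalling through the CSF1 receptor, clear dying cells, and make most of the C1q of a tissue, the recognition molecule of the classical complement pathway. Neutrophils carry large stores of S100A8 and S100A9, calcium-binding proteins that are released at sites of inflammation. CD14 hands bacterial endotoxin to a receptor made of Toll-like receptor 4 and the protein encoded by Ly96. In whole prostate RNA, fewer cells of a type and less RNA per cell cannot be told apart.

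Levels are the log2 of a probe's processed signal over the 75th percentile of its array, written as level. A level of 0 is at that percentile, and levels of different probes are not compared. The ± values are the scanner software's error of the spot, which covers the reading of a spot and not differences between mice. The arrays held 43379 spots outside controls, of which 63.9% to 74.1% were well above background, with the lowest share on the array of TRAMP mice given TmT. The 75th percentiles were 161 on C57BL/6 oil, 118 on C57BL/6 TmT, 139 on TRAMP oil and 71.3 on TRAMP TmT, the names used below for the 4 arrays and their order. The label of the tissue was checked against epithelial markers, and the luminal keratin genes Krt8 and Krt18 were well above background on all 4 arrays. Of the 10 genes, 8 were well above background on all 4 arrays, S100a9 on 3 and S100a8 on none.

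C1qa, C1qb and C1qc encode the chains of C1q and lie side by side on chromosome 4. Their probes read at mm9 chr4:136452409-136452468 for C1qa, chr4:136436578-136436637 for C1qb and chr4:136445766-136445825 for C1qc. The probes of C1qa and C1qb, both on the minus strand, are shown because these genes, on either side of C1qc, differed in direction after TmT:
C1qa probe: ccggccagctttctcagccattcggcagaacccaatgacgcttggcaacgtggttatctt
C1qb probe: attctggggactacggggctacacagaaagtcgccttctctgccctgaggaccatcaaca

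The C1qa level was -0.29 ± 0.15 on C57BL/6 oil, -1.46 ± 0.15 on C57BL/6 TmT, -0.70 ± 0.15 on TRAMP oil and -1.70 ± 0.17 on TRAMP TmT. Both TmT arrays lay below both oil arrays, by more than the scanner error. C1qa was thus 2.25-fold lower after TmT than after oil in C57BL/6 (-1.17 ± 0.21) and 2.00-fold lower in TRAMP (log2 scanner error 0.22). By the brightest probes, and among the genes measured in both lines, C1qa alone differed at least 2-fold in the same direction in both. Between the lines it differed by -0.41 ± 0.21 after oil and by -0.24 ± 0.23 after TmT. The C1qa spot lay at row 493 of 532, where the scanner software's factor for spatial trend was 0.719, 0.886, 0.532 and 0.793 in the order of arrays above, against 0.93 to 1.26 for the genes other than S100a8 and Ly96. The factor had been applied on every array except TRAMP TmT. Without it on any array the treatment difference in TRAMP was -0.10, and with it on all 4 arrays it was -0.66. In C57BL/6 it was -0.87 without it, and TRAMP minus C57BL/6 after oil was -0.83. Normexp background correction with extreme local backgrounds replaced gave -0.35 for C1qa after TmT in C57BL/6 and turned the sign in TRAMP, to 0.21.

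The C1qb level was -0.07 ± 0.14 on C57BL/6 oil, 0.31 ± 0.14 on C57BL/6 TmT, -0.40 ± 0.15 on TRAMP oil and 0.01 ± 0.15 on TRAMP TmT. In both lines the TmT array was the higher one, opposite to C1qa. The difference was 0.38 ± 0.20 in C57BL/6 and 0.41 ± 0.21 in TRAMP. TRAMP lay below C57BL/6 by 0.33 after oil and by 0.30 after TmT.

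The C1qc level was 1.56 ± 0.14 on C57BL/6 oil, 0.63 ± 0.14 on C57BL/6 TmT, 1.01 ± 0.14 on TRAMP oil and 1.86 ± 0.14 on TRAMP TmT. The highest array was TRAMP TmT and the lowest C57BL/6 TmT, and no scanner errors overlapped. After TmT, C1qc was 2.35-fold higher in TRAMP than in C57BL/6 (1.23 ± 0.20), while after oil it was lower in TRAMP (-0.54 ± 0.20). TmT minus oil was -0.93 ± 0.20 in C57BL/6 and 0.84 ± 0.20 in TRAMP, of opposite sign. The 3 chains of 1 protein therefore had different orders over the 4 arrays. The distance between the 4 centred levels of C1qa and C1qb was 1.48 log2 units, that between C1qa and C1qc 1.47, and that between C1qb and C1qc 1.18. The smallest distance between any 2 of the 8 genes measured on all arrays was 0.37, between C1qb and Cd68, followed by 0.46 between C1qc and Emr1.

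**Figure D1:**
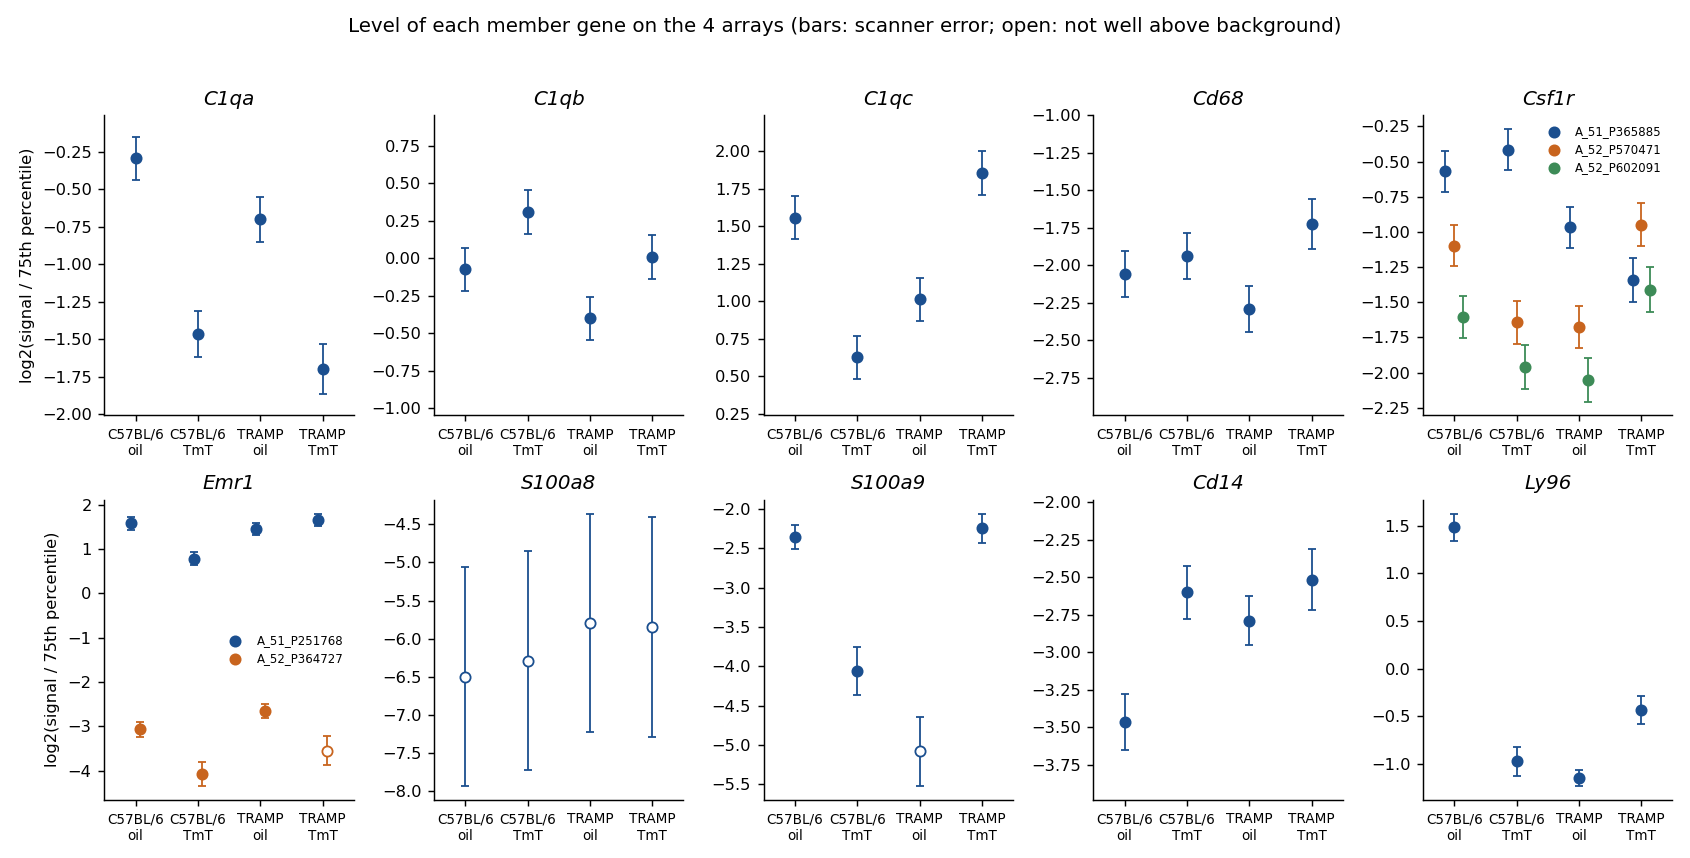
Level of each gene, log2 of the processed signal over the array's 75th percentile (vertical axis, a separate range in each panel), on the 4 arrays, with the scanner error as bars, open circles for spots not well above background and colours for the probes of Csf1r and Emr1. C1qa is lower on both TmT arrays, Ly96 is highest on C57BL/6 oil at 1.49, and S100a8 is open on all 4 arrays.

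Promoters of 5 of the 10 genes were in the RefSeq table of build GRCm38.p6, which gives 250 bases before the start site and 50 after it. They were searched on both strands for AGGAAGT, a core bound by ETS-family factors such as Spi1, the regulator of myeloid genes, and for GAGGAAGTG, which contains it. AGGAAGT was found in C1qb, C1qc and S100a8 and not in Cd68 or S100a9, and occurred in 9.35% of all 32851 promoters. GAGGAAGTG was found in C1qc and S100a8, and in 1.57% of all promoters. The windows of C1qb at chr4:136886151-136886450 and C1qc at chr4:136892865-136893164, both of the minus strand, are shown as neighbours that share the core. Capitals mark it as its reverse complement, 53 bases before the C1qb start and 195 before the C1qc start:
C1qb promoter: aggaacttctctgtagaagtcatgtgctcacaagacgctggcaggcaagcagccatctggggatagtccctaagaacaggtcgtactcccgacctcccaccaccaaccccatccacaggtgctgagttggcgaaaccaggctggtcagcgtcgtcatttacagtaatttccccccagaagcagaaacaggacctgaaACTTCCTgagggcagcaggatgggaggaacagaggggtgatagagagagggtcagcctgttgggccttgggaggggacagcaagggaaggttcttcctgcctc
C1qc promoter: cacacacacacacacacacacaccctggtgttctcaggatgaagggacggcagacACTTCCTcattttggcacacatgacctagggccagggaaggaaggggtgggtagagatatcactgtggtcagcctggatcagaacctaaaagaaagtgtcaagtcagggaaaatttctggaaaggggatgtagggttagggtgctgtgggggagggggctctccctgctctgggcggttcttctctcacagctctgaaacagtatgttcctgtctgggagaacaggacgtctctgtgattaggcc
Spi1 itself, named after its values were seen, differed between TRAMP and C57BL/6 by -0.75 ± 0.23 after oil and 0.63 ± 0.25 after TmT. Its TmT minus oil difference was -0.55 ± 0.23 in C57BL/6 and 0.84 ± 0.24 in TRAMP.

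Among the macrophage genes, Cd68 encodes a lysosomal glycoprotein of phagocytes. Its level was -2.06 ± 0.15 on C57BL/6 oil, -1.94 ± 0.15 on C57BL/6 TmT, -2.29 ± 0.15 on TRAMP oil and -1.72 ± 0.17 on TRAMP TmT. TRAMP TmT was the high array and TRAMP oil the low one. In 3 of the 4 comparisons the difference was no larger than 0.23 in either direction, about the scanner error. The exception was 0.57 ± 0.23 for TmT minus oil in TRAMP.

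Csf1r encodes the receptor of the growth factors CSF1 and interleukin-34, and had 3 probes on chromosome 18, all well above background on all 4 arrays. The brightest probe (mm9 chr18:61290384-61290443) had levels of -0.57 ± 0.15 on C57BL/6 oil, -0.41 ± 0.15 on C57BL/6 TmT, -0.97 ± 0.15 on TRAMP oil and -1.34 ± 0.16 on TRAMP TmT, so both TRAMP arrays lay below both C57BL/6 arrays. The second probe (chr18:61269422-61269481) was at -1.10, -1.64, -1.68 and -0.95 in the same order, and the last (chr18:61289398-61289758) at -1.61, -1.96, -2.05 and -1.41. These probes had their highest level on TRAMP TmT, where the brightest probe had its lowest. TRAMP minus C57BL/6 after TmT was -0.93 ± 0.21 by the brightest probe against 0.70 ± 0.22 and 0.55 ± 0.22 by the others. TmT minus oil in TRAMP was -0.37 ± 0.21 against 0.73 ± 0.21 and 0.64 ± 0.22. After oil all 3 probes were lower in TRAMP, at -0.40, -0.58 and -0.45. The direction for Csf1r after TmT therefore depended on the probe, and its mean over the probes was 0.11 for TRAMP minus C57BL/6 after TmT, -0.25 for TmT minus oil in C57BL/6 and 0.33 for it in TRAMP.

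Emr1, now named Adgre1, encodes an adhesion receptor that marks mature mouse macrophages. Its bright probe (chr17:57622843-57622902) had levels of 1.57 ± 0.14 on C57BL/6 oil, 0.78 ± 0.14 on C57BL/6 TmT, 1.45 ± 0.14 on TRAMP oil and 1.65 ± 0.14 on TRAMP TmT. The C57BL/6 TmT array stood below the other 3, which lay within 0.21 of each other. TmT minus oil was -0.80 ± 0.20 in C57BL/6 and 0.21 ± 0.20 in TRAMP, and TRAMP minus C57BL/6 was -0.13 ± 0.20 after oil and 0.88 ± 0.20 after TmT. Its dim probe (chr17:57550221-57550280) was at -3.07, -4.07, -2.65 and -3.55, the last not well above background. By that probe the TmT level was 2.01-fold lower than the oil level in C57BL/6 (log2 scanner error 0.32), and at least 1.84-fold lower in TRAMP, where the bright probe gave the opposite sign.

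S100a8 and S100a9 encode the subunits of calprotectin. The S100a8 probe was not well above background on any array, with processed signals of 1.8, 1.5, 2.5 and 1.2 in the order of arrays above, and each had a scanner error of the same size as the signal. No fold is given for S100a8. Its probe, on the plus strand at mm9 chr3:90473778-90473837, is shown because all of what can be said of this gene rests on it:
S100a8 probe: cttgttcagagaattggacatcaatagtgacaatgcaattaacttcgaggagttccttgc

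The S100a9 probe (chr3:90496585-90496644) had processed signals of 31.6 ± 3.36 on C57BL/6 oil, 7.06 ± 1.48 on C57BL/6 TmT, 4.10 ± 1.25 on TRAMP oil and 15.0 ± 1.95 on TRAMP TmT, with TRAMP oil not well above background. As levels these were -2.35, -4.06, -5.08 and -2.24. C57BL/6 oil and TRAMP TmT were thus the high arrays, and the other pair was low. S100a9 was 3.26-fold lower after TmT than after oil in C57BL/6 (-1.71 ± 0.34), where 49 of 18665 measured genes had a lower difference. In TRAMP it was at least 6.12-fold higher after TmT. TRAMP was at least 5.69-fold lower than C57BL/6 after oil and 3.51-fold higher after TmT (1.81 ± 0.36). A bound of this kind sets the brighter level against the higher of the dim spot's own level and the lowest level well above background on that array. It leaves out the scanner errors, so it is a convention and not a strict limit. On the C57BL/6 TmT array S100a9 lay near background, and normexp background correction, which adds 50 to each signal, gave -0.21 for TmT minus oil in C57BL/6 once a few extreme local backgrounds were replaced.

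Ly96 encodes the lipid-binding subunit of the endotoxin receptor. Its probe is shown because it gave the largest measured differences among the 10 genes. The probe's 60 bases are placed on the plus strand of mm9 chr1:16696289-16699561, a span of 3273 bases, so it crosses at least 1 intron:
Ly96 probe: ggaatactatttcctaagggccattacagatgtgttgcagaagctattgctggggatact

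The processed signal of Ly96 was 451 ± 45.1 on C57BL/6 oil, 59.8 ± 6.17 on C57BL/6 TmT, 62.7 ± 3.78 on TRAMP oil and 52.7 ± 5.41 on TRAMP TmT, and the levels were 1.49, -0.97, -1.15 and -0.44. Ly96 was high on the C57BL/6 oil array and low on the other 3. It was 5.50-fold lower after TmT in C57BL/6 (-2.46 ± 0.21), and 3 of 18665 measured genes had a lower difference. It was 6.20-fold lower in TRAMP than in C57BL/6 after oil (-2.63 ± 0.17), where 64 of 18921 genes had a lower one. Both differences share the C57BL/6 oil array. Between the other arrays the sign was the opposite, with 0.54 ± 0.21 for TRAMP minus C57BL/6 after TmT and 0.71 ± 0.17 for TmT minus oil in TRAMP. The Ly96 spot lay at row 527 of 532, where the factor for spatial trend was 0.721, 0.894, 0.425 and 0.675. The factor was not applied on TRAMP TmT, and with it on all 4 arrays TRAMP minus C57BL/6 after TmT was 1.11 and TmT minus oil in TRAMP 1.29, both over 2-fold. Without that factor on any array the difference was -2.15 for TmT in C57BL/6, -3.38 for TRAMP after oil and 1.94 for TmT in TRAMP. The mean pixel signals before any correction were 349, 76.1, 50.9 and 76.7.

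Cd14 encodes the endotoxin co-receptor of monocytes and macrophages. Its level (chr18:36884969-36885028) was -3.47 ± 0.19 on C57BL/6 oil, -2.60 ± 0.18 on C57BL/6 TmT, -2.79 ± 0.16 on TRAMP oil and -2.52 ± 0.20 on TRAMP TmT. C57BL/6 oil was the low array, and the other 3 differed by at most 0.27. Cd14 was therefore higher after TmT in C57BL/6 (0.87 ± 0.26) and higher in TRAMP after oil (0.68 ± 0.25), 2 differences that share that array. The other 2 were 0.08 ± 0.27 for TRAMP minus C57BL/6 after TmT and 0.27 ± 0.26 for TmT minus oil in TRAMP. Cd14 was thus low on the array where Ly96 was high, and the distance between their centred levels, 2.77, was the largest of any pair among the 8 genes.

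**Figure D2:**
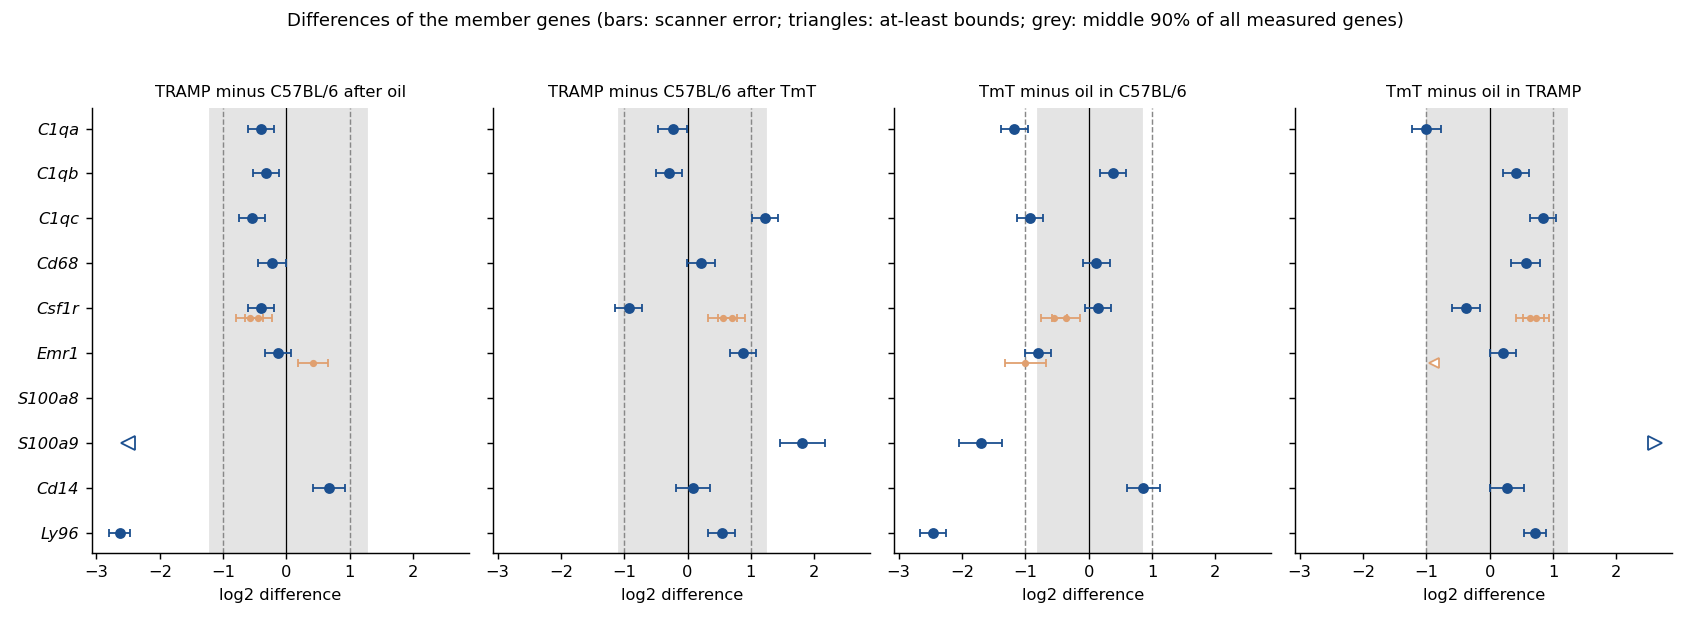
Log2 difference of each gene (horizontal axis) in the 4 comparisons, with the scanner error as bars, small orange symbols for the second probes of Csf1r and Emr1, open triangles for bounds, grey for the middle 90% of all measured genes and dashed lines at 2-fold. Ly96 lies at -2.63 and -2.46 in the panels that use the C57BL/6 oil array, and S100a9 is on opposite sides in neighbouring panels.

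Counted together, 1 of the 8 genes measured on both arrays, Ly96, was at least 2-fold different between TRAMP and C57BL/6 after oil and was lower, against 15.6% of all 18921 genes measured there, 7.74% higher and 7.84% lower. After TmT, 2 of 9 were, C1qc and S100a9, both higher in TRAMP, against 14.5% of 17251 genes, 8.45% higher and 6.09% lower. TmT against oil in C57BL/6 gave 3 of 9, C1qa, S100a9 and Ly96, all lower after TmT, against 5.74% of 18665 genes, 3.12% higher and 2.63% lower. TmT against oil in TRAMP gave 1 of 8, C1qa, again lower, against 13.5% of 17465 genes, 8.66% higher and 4.86% lower. With the factor for spatial trend on all 4 arrays, or on none, C1qa was outside that count and Ly96, higher after TmT, was the 1 gene in it. S100a9, as a bound, is outside the first and last of these counts. The shares among the 10 genes were near the background in 3 comparisons and above it for TmT in C57BL/6. With normexp background correction and extreme local backgrounds replaced, that last count was 1 of 9, against 0.954% of all genes.

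The median difference of the genes measured was -0.36 between the lines after oil, 0.21 between them after TmT, -0.80 for TmT in C57BL/6 and 0.34 for TmT in TRAMP. The medians of all genes were -0.07, 0.01, 0.02 and 0.10. After oil 7 of 8 genes were below 0, Cd14 being the exception, where 45.5% of all genes were above 0. The 4 comparisons share arrays in pairs, so these medians are not independent of each other.

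Genotype and treatment were then fitted together over 19925 genes with limma, using all 4 arrays and the interaction as the error, with 1 residual degree of freedom. Of the 10 genes 9 were tested and none passed an adjusted p of 0.05 for genotype, against 0.136% of all genes (27), or for treatment, against 0% (0). The largest fitted genotype difference was that of Ly96, -1.05 ± 0.75 (SE), with a limma adjusted p of 0.552. Csf1r had the lowest adjusted p, 0.418, at -0.66 ± 0.34 (SE) by its brightest probe in limma. None of the 9 had an unadjusted p under 0.05 for genotype, against 3008 of all genes. For treatment C1qa alone had one, at -1.09 ± 0.32 (SE), limma adjusted p = 0.778, against 1248 of all genes with an unadjusted p under 0.05 and a lowest adjusted p of 0.773. The other 8 had limma adjusted p-values for treatment from 0.778 to 0.99. The interaction, which this fit takes as error, was large for Ly96 and S100a9, whose fitted standard errors were 0.75 and 1.02.

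The other macrophage and monocyte genes were a list of 37, and all were well above background on both oil arrays, 34 on C57BL/6 TmT and 31 on TRAMP TmT. After oil, 30 of 37 were lower in TRAMP than in C57BL/6, with a median of -0.55. The 4 genes at least 2-fold lower were Gpnmb (-1.35), a glycoprotein of phagocytes, the inhibitory Fc receptor gene Fcgr2b (-1.11), the lectin gene Lgals3 (-1.07) and the signalling adaptor gene Tyrobp (-1.02). Of all genes measured in that comparison, 45.5% were above 0 and 7.84% at least 2-fold lower. After TmT in C57BL/6, 31 of 34 genes of the list were lower than after oil, with a median of -0.41. There the 4 at least 2-fold lower were Laptm5 (-1.73), a lysosomal protein of blood cells, Ly86 (-1.20), a relative of Ly96, Ms4a7 (-1.09), a membrane protein of macrophages, and the Fc receptor gene Fcgr3 (-1.01). For TmT in C57BL/6, 52.0% of all genes measured were above 0 and 2.63% at least 2-fold lower. Both comparisons use the C57BL/6 oil array.

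In the other 2 comparisons the list lay near all genes, with medians of 0.09 for TRAMP minus C57BL/6 after TmT and 0.12 for TmT in TRAMP. Laptm5 (1.28) and Ly86 (1.02) were at least 2-fold higher in TRAMP after TmT. The complement receptor gene Vsig4 (2.82-fold), the Fc receptor gamma chain gene Fcer1g (log2 difference 1.28) and the haemoglobin scavenger receptor gene Cd163 (1.11) were at least 2-fold higher after TmT in TRAMP. Of all genes 8.45% and 8.66% were at least 2-fold higher in these 2 comparisons. Under quantile normalization and median centring the list's medians after oil were -0.46 and -0.49, and those for TmT in C57BL/6 both -0.36. Normexp as planned turned the last to 0.33, and its variant with extreme backgrounds replaced gave -0.18.

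Of 32 other neutrophil genes 31 had a probe, 17 were well above background on all 4 arrays and 8 on none: Camp, Csf3r, Elane, Fpr1, Fpr2, Ngp, Stfa2 and Trem3. Elane encodes the granule elastase, Camp and Ngp encode other granule proteins, and Csf3r the receptor of the neutrophil growth factor. No probe was named Ly6g. The measured genes were split 10 to 10 between the lines after oil, with a median of -0.24. Of 20 measured there, 1 was at least 2-fold higher and 3 lower, against 7.74% and 7.84% of all genes. After TmT these were 1 and 4 of 17, against 8.45% and 6.09%. For TmT in C57BL/6 they were 2 and 1 of 19, against 3.12% and 2.63%, and in TRAMP 3 and 0 of 17, against 8.66% and 4.86%. The cathepsin gene Ctsg (-2.39), the decoy receptor gene Il1r2 (-1.57) and the oxidase subunit gene Cybb (-1.35) were lower and the gelatinase gene Mmp9 (1.45) higher in TRAMP. After TmT the protease inhibitor genes Stfa1 (-1.71) and Stfa3 (-1.58) were lower in TRAMP, and so again were Ctsg (-1.51) and Il1r2 (-1.13). Ltf, the lactoferrin gene of neutrophil granules and glandular secretions, had the signs of S100a9 in all 4 comparisons. It was 2.00-fold lower in TRAMP after oil, 1.23 higher in TRAMP after TmT on the log2 scale, at -1.13 for TmT in C57BL/6 and at 1.10 for TmT in TRAMP. Stfa1 (2.12) and Stfa3 (1.36) were higher after TmT in C57BL/6, where S100a9 was lower, and Stfa1 (1.18) was also higher after TmT in TRAMP. Both are members of a family of near-identical copies, so their probes may not tell them apart. The lipocalin gene Lcn2 (1.17) was likewise higher after TmT in TRAMP.

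**Figure D3:**
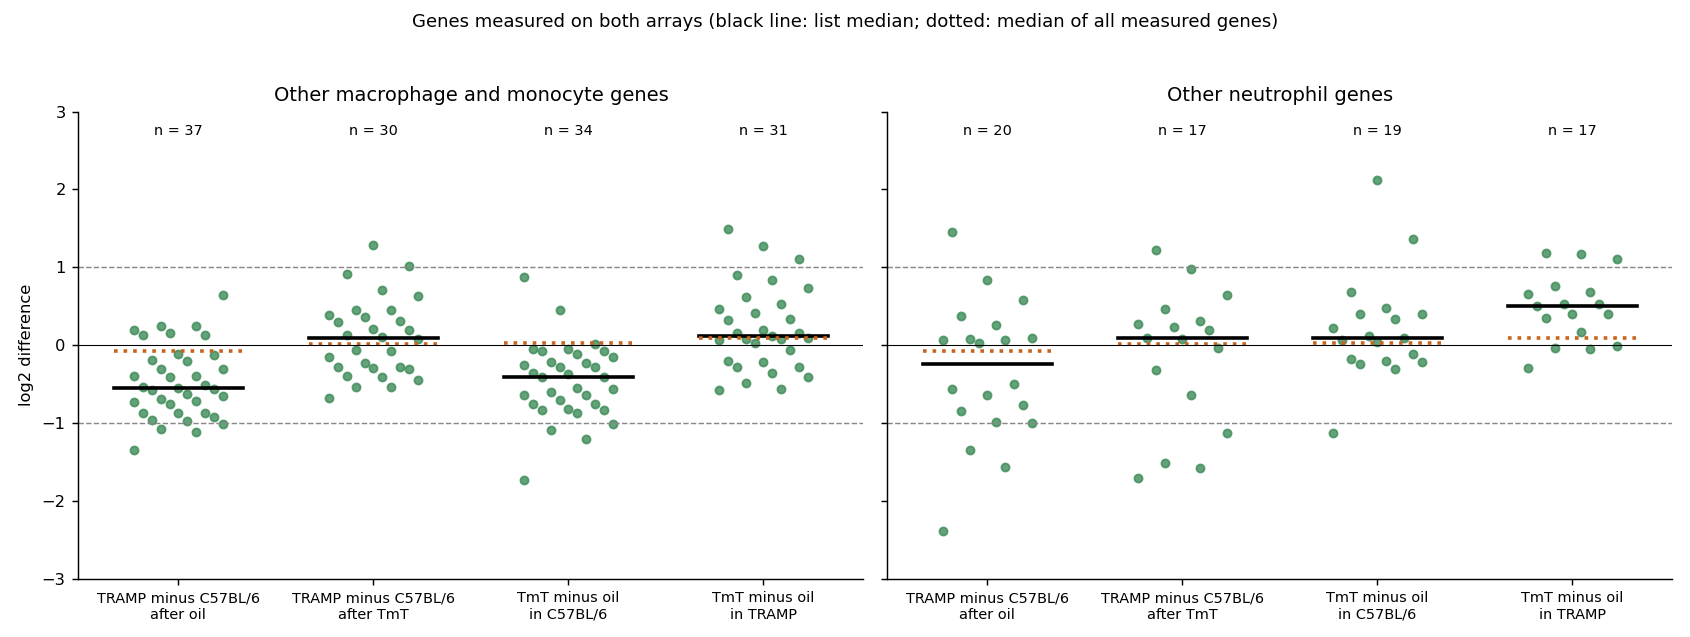
Log2 difference (vertical axis) of each gene of the macrophage and monocyte list and of the neutrophil list measured on both arrays, in the 4 comparisons, with the list median as a black line, the median of all measured genes dotted and 2-fold dashed. The macrophage medians lie at -0.55 and -0.41 in the comparisons that use the C57BL/6 oil array.

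Partners of the 10 genes showed further differences. C1ra and C1s1, the proteases that C1q activates, were at -2.95 and -2.50 in TRAMP after oil, -1.29 and -1.22 in TRAMP after TmT, 0.58 and 0.36 for TmT in C57BL/6, and 2.24 and 1.64 for TmT in TRAMP. All 8 errors were 0.20. C1qb had the signs of both proteases in all 4 comparisons, and C1qa and C1qc did not. Of 19 measured complement genes 8 were at least 2-fold different after oil, 3 higher and 5 lower, against 15.6% of all genes. Of the 19, Itgax is also on the macrophage list. Cfd (2.67), which adipocytes also secrete, was the highest, followed by the protease genes Masp2 (1.37) and Cfb (1.28). Beside C1ra and C1s1, the lower ones were the regulator genes Cd55 (-1.80) and Cfp (-1.46) and the endothelial and myeloid receptor gene Cd93 (-1.03). C3ar1, the receptor of the C3 fragment on myeloid cells, was at -1.08 for TmT in C57BL/6 and -2.98 ± 0.18 for TmT in TRAMP, lower in both lines like C1qa.

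The Toll-like receptor 4 list had 28 genes, 21 well above background on all 4 arrays and 6 on none, the cytokine genes Tnf, Il6 and Il10 among them. Its median was -0.22 in TRAMP after oil, 0.32 in TRAMP after TmT, -0.18 for TmT in C57BL/6 and 0.10 for TmT in TRAMP. Tlr4, named after its values were seen, was at -0.35, 0.58, -0.55 and 0.38 with errors of 0.06 to 0.07, the same signs as Ly96. Its sizes were smaller than those of Ly96 except for TRAMP minus C57BL/6 after TmT. The adaptor Traf6 was at -1.22, 0.76, -0.30 and 1.69, and Il1b, which encodes interleukin-1 beta, at -1.19, 0.69, -0.92 and 0.95. The kinase gene Irak4 (-1.29) was lower in TRAMP after oil, and the chemokine gene Cxcl1 (-1.09) lower after TmT in C57BL/6. After TmT the chemokine gene Ccl2 (1.02) was higher and the kinase gene Irak1 (-1.03) lower in TRAMP.

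Of the S100 list 12 genes were measured in every comparison, 11 other S100 genes and S100pbp, which encodes an S100-binding protein and is in the counts and medians below. After oil 11 of 12 were lower in TRAMP (median -0.60), and after TmT 11 of 12 were higher in TRAMP (median 0.31). TmT minus oil was below 0 for 11 of 12 in C57BL/6 (median -0.14) and above 0 for 12 of 12 in TRAMP (median 0.68). Of all genes measured, 45.5%, 50.6%, 52.0% and 55.9% were above 0 in these comparisons, in the same order. The signs of the S100 medians were kept under quantile normalization and median centring, while normexp as planned gave -0.11 for TRAMP minus C57BL/6 after TmT and -0.58 for TmT in TRAMP. S100pbp (2.72) and S100a6 (1.25), a gene of many epithelial and stromal cells, were at least 2-fold higher after TmT in TRAMP. Basal and stratified epithelium markers had medians of the same signs, at -0.71, 0.18, -0.36 and 0.53, with 8 of 8 above 0 for TmT in TRAMP and Krt6a on no array well above background. Their summed level was 28.5 to 34.8 times the 75th percentile on 3 arrays and lower on TRAMP oil. Their part in the S100 differences was not tested. Csf1, a ligand of the Csf1r product, was at -0.11, 0.87, -0.48 and 0.50, and Il34, the other ligand, at -0.25, -0.58, 0.84 and 0.50.

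Markers of other cells also differed in these comparisons, and their part in the results above was not tested. Of 9 adipocyte markers measured after oil, 9 were higher in TRAMP (median 2.27), and of 7 measured for TmT in TRAMP, 7 were lower (median -2.10). Their summed level over the 75th percentile was 50.1 on C57BL/6 oil, 28.4 on C57BL/6 TmT, 240 on TRAMP oil and 24.1 on TRAMP TmT, and Lep was on none of the arrays well above background. The 8 pan-leukocyte markers summed to 53.3, 41.1, 28.3 and 47.7, with medians of -0.39, 0.12, -0.32 and 0.14 in the order of comparisons used here. Most of each sum came from Cd52, with levels of 5.44, 5.05, 4.37 and 5.34 in the order of arrays above. Without Cd52 the sum of C57BL/6 oil stayed the highest and that of TRAMP TmT became the lowest. Sums of this kind are weighted to the brightest probes of a list. The mast cell and eosinophil list had medians of -0.78, -0.08, -0.90 and 0.58, with Tpsab1 and Ms4a2 on no array. After oil its protease genes Cpa3 (-2.99), Mcpt4 (-1.74) and Cma1 (-1.63) and the histamine enzyme gene Hdc (-1.10) were lower in TRAMP. The red cell list had medians of -0.52, -0.09, -0.35 and 0.17. The same sums were 11.7, 6.61, 7.48 and 9.92 for the 10 genes, 75.3, 57.2, 56.0 and 60.7 for the macrophage list and between 8.04 and 11.1 for the neutrophil list. The C57BL/6 oil array had the highest sum for the 10 genes, the macrophage list and the pan-leukocyte markers. For the 10 genes this rank rested on Ly96, and without Ly96 the highest sum was that of TRAMP TmT. The C57BL/6 oil array also had the highest sum for the red cell markers, at 51.8 against 21.4 to 25.4. The same held for the mast cell and eosinophil markers, at 4.32 against 1.89 to 2.48, but not for the neutrophil list. Dendritic cell markers, at 18.5, 16.7, 16.9 and 31.6 in the order of arrays above, were highest on TRAMP TmT. So were the B and plasma cell markers, at 5.94, 3.56, 4.78 and 6.93. T and NK cell markers lay between 2.16 and 2.32 on all 4 arrays.

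**Figure D4:**
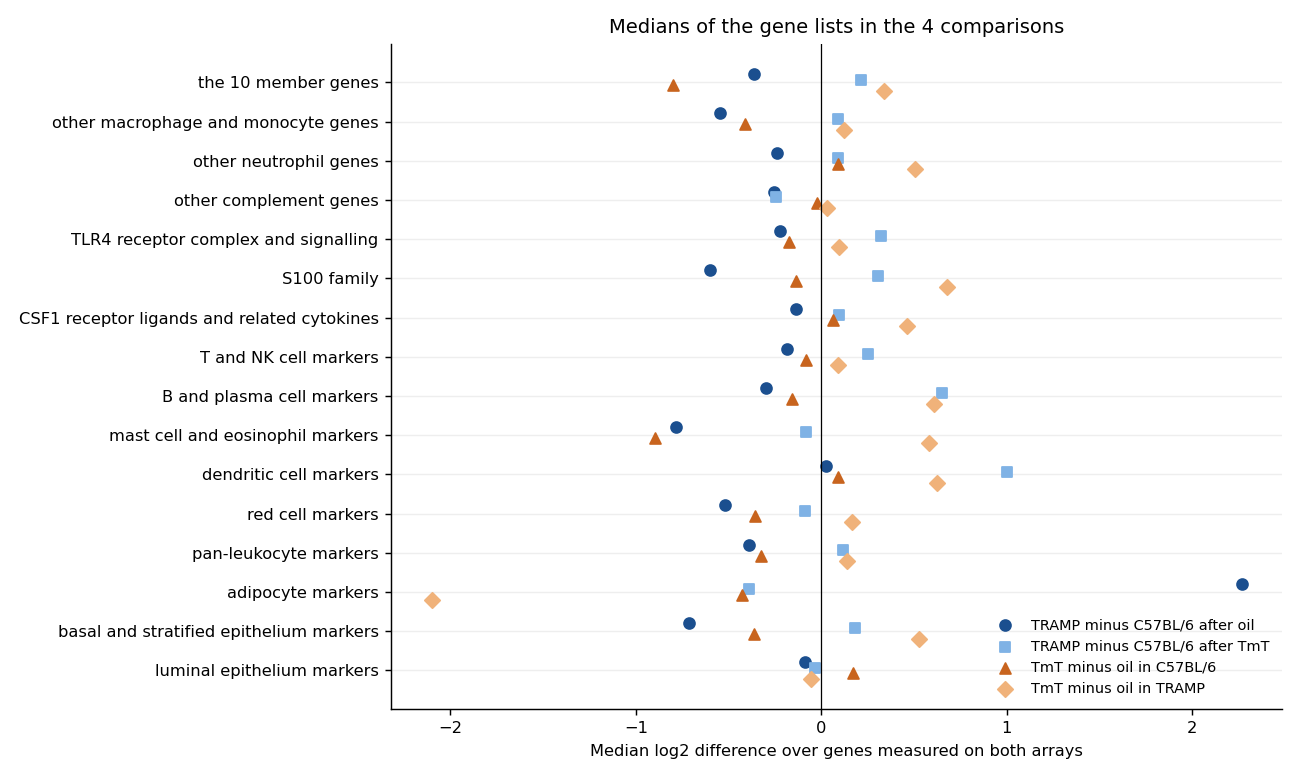
Median log2 difference (horizontal axis) of the 10 genes and of each gene list over the genes measured on both arrays, with 1 symbol for each of the 4 comparisons. The adipocyte markers lie at 2.27 for TRAMP minus C57BL/6 after oil and -2.10 for TmT minus oil in TRAMP.

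Genes whose 4 centred levels lay closest to the mean of the 3 C1q chains or to Ly96 were looked up. They were ranked among 16958 and 16960 genes well above background on all arrays. The 3 chains lay 1.18 to 1.48 log2 units from each other, so their mean is not the profile of any 1 chain. Nearest to the mean of the 3 C1q chains was H2-Eb1, an antigen-presenting class II chain, at a distance of 0.025, followed by AK046873, Col11a1 and 4930405M20Rik at 0.037 to 0.041. Nearest to Ly96 were Hspa1b at 0.66, Hapln3 at 0.69, Spag7 and Socs7. Each profile has 4 points, and these matches are descriptions only.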

How the data were processed

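Prostate total RNA was labelled with Cy3 and read on 1-colour Agilent arrays, all on 1 slide with 1 scan time. The deposited scanner files hold a linear intensity per spot, background-subtracted and, on 3 of 4 arrays, divided by a factor for spatial trend, per the file headers (Agilent Feature Extraction 10.2.1.3, probe positions on mm9). No normalization between arrays is recorded there. The deposited value table held the same intensity for all 45018 features, which makes it linear and uncentred, with medians of 30.2, 21.3, 25.3 and 13.8. Each intensity was divided by the 75th percentile of its array and log2 taken; 131 to 348 spots marked as outliers were left out, and no spot was saturated. A gene is its name in the files, read by the probe with the highest mean level. Through RefSeq accessions 24844 of 41174 probes were matched, which changed 4060 symbols, and 229 of 237 listed symbols had a probe. Exons and untranslated regions under the probes were not looked up. A gene counts as measured in a comparison when well above background on both arrays, by the scanner software's mark. Counts used a 2-fold threshold. The additive fit used R 4.3.3 and limma 3.58.1 (lmFit, eBayes, Benjamini-Hochberg adjustment), with genes above background on 2 or more arrays, with 4.47 prior degrees of freedom and a prior SD of 0.355, and was tested on simulated data. Among 143 probes printed 10 times the median SD within an array was 0.109 to 0.177 log2 units. With 1 array per group, the spread between arrays or mice of a group was not measured. The 10 genes and all lists were chosen with earlier results of these data known. Named were all 10 genes, from each list some of the genes that were at least 2-fold different or had the 2 highest or 2 lowest differences of a comparison, and the 4 genes nearest to the C1q mean and to Ly96. Neighbours of the mean of S100a8 and S100a9 are left out, since S100a8 was not above background. Alternatives changed the background correction, the spatial trend, the scaling, the probe, the filter, the source of the values and the fold threshold.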

Additional observations from a re-analysis of the deposited data

Results flagged for a closer look

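For 4 of the 10 genes the difference between TmT and oil had opposite directions in the 2 lines by the brightest probe, beyond the scanner error or as a bound. The difference between the lines was not tested, since each group had 1 array. Csf1r also had opposite signs, at 0.15 ± 0.21 in C57BL/6, within the scanner error, and -0.37 ± 0.21 in TRAMP. Its other probes had the reverse signs in both lines. C1qc was at -0.93 in C57BL/6 and 0.84 in TRAMP, which are 1.77 log2 units apart. Emr1 was at -0.80 and 0.21 by its bright probe, 1.00 apart. Its dim probe was lower after TmT in both lines. S100a9 was at -1.71 in C57BL/6 and at least 6.12-fold higher after TmT in TRAMP, where the oil array was not well above background. Ly96 was at -2.46 in C57BL/6 and 0.71 in TRAMP, 3.17 apart.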

How the results depend on the processing

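No paired analysis was possible because each group had 1 array and the labels carry no replicate numbers; for the same reason no replicate could be left out. The deposited value table gave every value unchanged, being the same numbers. The number of the 10 genes at least 2-fold different was 1 after oil between the lines, 2 without the filter on dim probes and 2 at 1.5-fold. Between the lines after TmT it was 2, against 0 with normexp and 0 with normexp after replacing local backgrounds over 100, 1 at 3-fold, 4 at 1.5-fold and 3 with detrending on all 4 arrays. For TmT in C57BL/6 it was 3, against 5 with normexp, 1 with replaced backgrounds, 6 at 1.5-fold, 2 at 3-fold and 2 before detrending. For TmT in TRAMP it was 1, against 4 with normexp, 0 with replaced backgrounds, 2 without the filter, 0 at 3-fold and 3 at 1.5-fold. Before detrending, and with it on all 4 arrays, it stayed 1, but the gene was Ly96, higher, in place of C1qa, lower. The limma fit called 27 genes for genotype, against 0 with normexp, 1390 with replaced backgrounds, 258 before detrending, 44 with quantile normalization, 0 with median centring, 0 with the mean over probes and 49 with detrending on all 4 arrays. For treatment it called 0 genes (1248 at an unadjusted p under 0.05), 14819 with normexp and 350 with replaced backgrounds. Signs turned with normexp for 11 of 34 differences and with replaced backgrounds for 4. Among those of at least 2-fold they turned with normexp for C1qc between the lines after TmT (-0.026), C1qa after TmT in C57BL/6 (0.48) and in TRAMP (0.89) and S100a9 after TmT in C57BL/6 (1.27), and with replaced backgrounds for C1qa after TmT in TRAMP (0.21). Among the 10 genes, normexp called 6 for treatment, and replaced backgrounds called Ly96 for genotype (-0.79, limma adjusted p = 0.0336). On the TmT arrays 17 and 10 spots had a local background over 100, up to 137411 and 659409, and none on the oil arrays; these spots entered the normexp fit. Another fold threshold or filter changes the counts by construction. The 50 that normexp adds to each signal likewise shrinks the log2 differences of dim spots. With replaced backgrounds, 5.97%, 4.36%, 0.954% and 5.25% of all genes were past 2-fold, in the order of comparisons used here. In the main setting these shares were 15.6%, 14.5%, 5.74% and 13.5%. Beyond this, the cause of the shifts was not tested. Replacing those backgrounds and detrending all 4 arrays were chosen after seeing the data. The other turns in sign, without normexp, were 9 of 34 differences, all under 2-fold. The share of higher genes among those past 2-fold moved by over 10 points with normexp (49.7% to 39.4% after oil, 58.1% to 0.211% after TmT, 64.1% to 50.2% for TmT in TRAMP), with replaced backgrounds (39.4%, 27.5% and, for TmT in C57BL/6, 54.3% to 67.4%) and without the filter (54.3% to 42.3%). Levels near background, those of S100a8, S100a9 and the dim Emr1 probe, limit what can be compared.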
